A study of Mus musculus with 6 samples.

Results

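The FGF receptors are the family of cell surface proteins through which fibroblast growth factors act. The 5 genes of the family, Fgfr1, Fgfr2, Fgfr3, Fgfr4 and Fgfrl1, were taken by gene name from the 53657 gene names counted, and 5 of 5 were among the 19656 genes with enough counts to be tested. RNA-seq was carried out on undifferentiated spermatogonia (Aundiff, the germ cell pool that includes the spermatogonial stem cells) sorted from adult mouse testes as tdTomato+ cells with the brightest staining for the surface protein MCAM, 3 months after tamoxifen. WT mice (n = 3) carried Gfra1-creERT2 and tdTom fl/-, and MUT mice (n = 3) carried in addition 1 FR-Hras G12V allele, which Cre converts into an activated Hras under its own promoter. Both groups carried the Cre and received 2 courses of tamoxifen, the WT animals were littermates without the Hras allele, and the mice were of mixed background. In this model the Gfra1 promoter decides which cells recombine, so that the testis is a mosaic, the sort keeps cells that recombined the reporter, and tdTomato also stays on in the progeny of the labeled cells. From variant calling in the RNA-seq, the study reported that most of the isolated MUT Aundiff carried Hras G12V.

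An FGF receptor binds its ligand together with heparan sulfate on the cell surface, pairs with a second receptor, and its intracellular tyrosine kinase then phosphorylates docking proteins that recruit GRB2 and SOS and load RAS proteins, HRAS among them, with GTP. FGFR1 to FGFR4 have the kinase, whereas FGFRL1 has a similar extracellular part and no kinase. FGF2 is, with GDNF, a usual factor of spermatogonial stem cell cultures, and activating mutations of FGFR2, FGFR3 and HRAS are known in men to be enriched in the testis with age by selfish selection. The comparison asks whether receptors upstream of RAS are expressed at another level in Aundiff where Hras itself carries an activating mutation.

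The 4 kinase receptors are alike enough that shared reads had to be considered before their levels. The stretches below are the 60 coding bases, in frame and without gaps, in which the most bases are shared by all of Fgfr1 to Fgfr4. They lie in the third immunoglobulin-like domain outside the cell, each within 1 exon, and capitals mark the 15 positions at which the 4 genes do not all have the same base, with 45 bases shared by all. Sequences and positions come from the GENCODE M21 transcripts on GRCm38.
Fgfr1: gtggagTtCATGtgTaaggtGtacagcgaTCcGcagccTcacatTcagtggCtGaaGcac
Fgfr2: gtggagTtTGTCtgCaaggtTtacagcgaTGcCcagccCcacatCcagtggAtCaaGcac
Fgfr3: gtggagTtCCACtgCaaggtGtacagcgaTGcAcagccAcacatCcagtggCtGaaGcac
Fgfr4: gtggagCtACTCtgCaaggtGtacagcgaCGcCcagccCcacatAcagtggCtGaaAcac
The Fgfr1 stretch is at chr8:25562209-25562268 on the plus strand, in exon 7 of 18. That of Fgfr2 is at chr7:130201043-130201102 on the minus strand, in exon 7 of 18. Fgfr3 has it at chr5:33730215-33730274 on the plus strand, in exon 6 of 17, and Fgfr4 at chr13:55159994-55160053 on the plus strand, in exon 7 of 18. Any pair of these stretches differed at 8 to 11 positions, and the longest run without a difference was between 9 and 18 bases. Over the whole coding sequences the longest exact run in any pair of receptors was 26 bases, between Fgfr1 and Fgfr3. None of the 50-base windows of the coding transcripts of a receptor, the length of 1 read, occurred in a transcript of another receptor. Some occurred, on either strand, in transcripts of genes outside the family. For Fgfr3 these were 420 of 4845 windows (8.67%), with 391 in G630022F23Rik and 29 in Nvl. Fgfr2 had 266 (4.84%) in Ctbp2, Fgfr1 had 117 (2.06%) in Gm16159, and Fgfr4 and Fgfrl1 had 0. The coding sequences of Fgfr1 and Fgfr2 were the most alike, with 69.5% of aligned bases identical. The other pairs of kinase receptors had 59.8% to 64% identical bases, and Fgfrl1 had 44.2% to 44.9% with any of them.

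Reads could instead be lost to overlapping genes, because the fragments had been counted without regard to strand and those that touched exons of more than 1 gene were left out. Fgfr1, on chromosome 8 from 25513654 to 25575718 (plus strand, GRCm38), shares 164 exon bases, or 1.66% of its exon length, with the minus-strand gene AC160526.2. Fgfr2, on chromosome 7 from 130162451 to 133123350 (minus strand), is annotated with exons far from the rest of the gene, so that its span holds 69 other genes, and 314 of its exon bases (3.04%) are shared with Ctbp2. Fgfr3, on chromosome 5 from 33721674 to 33737068 (plus strand), shares 998 exon bases (13.9%) with the minus-strand gene RP23-391P21.4. Fgfr4, on chromosome 13 from 55152640 to 55168759 (plus strand), and Fgfrl1, on chromosome 5 from 108692382 to 108706924 (plus strand), share none. The Fgfr2 windows found in Ctbp2 above can be the same bases as this exon overlap, and need not be a separate loss of reads. For Fgfr1 and Fgfr3 the gene names of the windows and of the overlaps differ, and whether their loci match was not tested. The gene opposite Fgfr3 was itself low, with 25 to 53 counts per library, and did not differ between the genotypes by more than the spread between samples (log2 fold change 0.14 ± 0.30 SE, edgeR adjusted p = 0.998). Fragments on the shared bases are missing from both counts, so these values cannot show how many fragments Fgfr3 lost. Levels per length below use the full length, shared bases included, and can be too low where exons overlap. The pseudogene Fgfr3-ps had 0 counts in 6 of 6 libraries. All of its exon bases overlap the gene Nvl, so the counting rule alone gives 0 and its expression cannot be read from these counts.

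Libraries held 22729292 to 23550433 counts, of which the 5 receptors took 0.0174% to 0.0192%. At these depths 3 counts, the limit that a count of 0 allows, correspond to 0.127 to 0.131 CPM (counts scaled to library size, here with TMM factors), and each receptor was above it in every library. The germ line markers Ddx4 and Dazl summed to 1394 to 1421 CPM in WT and 1328 to 1470 CPM in MUT, and the 9 markers of undifferentiated spermatogonia to 2390 to 2789 and 2527 to 2913 CPM. Markers of other cells were detected as well, with 24.8 to 36.4 CPM for the 6 Sertoli cell genes, 12.9 to 67.3 CPM for the 6 Leydig cell genes, 6.99 to 11.4 CPM for the 4 peritubular myoid genes, 43.8 to 58.3 CPM for the 5 endothelial genes, 424 to 757 CPM for the 5 macrophage genes and 593 to 1459 CPM for the 5 spermatid genes. No defining marker was at 0 in all libraries. WT replicate 3 stood apart, with a chi-square per degree of freedom of 18.2 and 24.5 against the other WT libraries and 4.26 to 9.99 in the remaining pairs of one genotype, and it had the highest macrophage and spermatid sums. MUT replicate 3 had the highest Leydig cell sum. In bulk RNA, fewer cells of a type and less RNA per cell cannot be told apart.

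Per length of transcript, Fgfrl1 and Fgfr1 were the most abundant receptors of the sorted cells, Fgfr3 was intermediate, and Fgfr2 and Fgfr4 were near the lower end. In CPM per kilobase of annotated exon, the level of Fgfrl1 was 16.7 ± 0.949 (SD, n = 6 libraries), that of Fgfr1 10.7 ± 0.766, that of Fgfr3 3.14 ± 0.426, that of Fgfr2 0.753 ± 0.0739 and that of Fgfr4 0.572 ± 0.125. Both genotypes had this order. Neighbours in the order were compared within libraries by an exact two-sided sign-flip permutation test on the log2 ratio, with Benjamini-Hochberg adjustment over the 4 pairs a threshold of 0.05 on the adjusted p, and a smallest possible unadjusted p of 0.0313. Fgfrl1 exceeded Fgfr1 in 6 of 6 libraries by 0.64 ± 0.10 (SD) on the log2 scale (adjusted p = 0.0417, exact test). Fgfr1 exceeded Fgfr3 in 6 of 6 libraries by 1.78 ± 0.20 (adjusted p = 0.0417, exact test), and Fgfr3 exceeded Fgfr2 in 6 of 6 by 2.06 ± 0.25 (adjusted p = 0.0417, exact test). Fgfr2 was above Fgfr4 in 5 of 6 libraries, by 0.42 ± 0.34, and did not pass the threshold of 0.05 (adjusted p = 0.0625, exact test).

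The order at both ends depends on which length is used. The exon union of Fgfr1 is 9875 bases and that of Fgfrl1 2782 bases, whereas their longest coding transcripts are 5041 and 2329 bases. With the longest coding transcript as the length, Fgfr1 was at 20.95 ± 1.4998 CPM per kilobase and Fgfrl1 at 19.95 ± 1.13 (SD, n = 6). The log2 ratio of Fgfrl1 to Fgfr1 then turned to -0.069 ± 0.10, with Fgfrl1 higher in 1 of 6 libraries (adjusted p = 0.156, exact test). Fgfr3 was at 5.29 ± 0.718 and Fgfr2 at 1.80 ± 0.177, and Fgfr2 exceeded Fgfr4 (0.609 ± 0.133) in 6 of 6 libraries, by 1.59 ± 0.34 on the log2 scale (adjusted p = 0.0417, exact test). The steps from Fgfr1 to Fgfr3 and from Fgfr3 to Fgfr2 passed with either length.

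**Figure D1:**
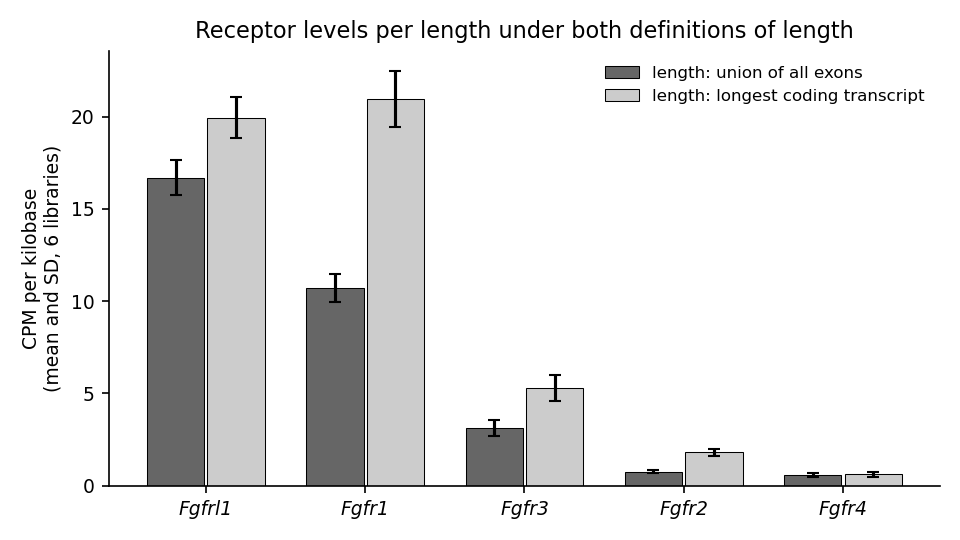
Bars give the mean and error bars the SD, over 6 libraries, of the receptor level in CPM per kilobase, with the exon union (dark) or the longest coding transcript (light) as the length. Fgfrl1 stands above Fgfr1 with the first (16.7 and 10.7) and level with it with the second (19.95 and 20.95), and Fgfr3, Fgfr2 and Fgfr4 stay below both.

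Of all fragments counted on the 5 genes, 53.8% to 60.4% per library came from Fgfr1, which has long exons as well as a high level, and 23.6% to 26.1% from Fgfrl1. Fgfr3 gave 11.1% to 14.9%, Fgfr2 3.71% to 4.92% and Fgfr4 0.820% to 1.48%. Counts per gene do not separate the IIIb and IIIc splice forms, which differ in the ligands they bind, so the forms of Fgfr1, Fgfr2 and Fgfr3 were not told apart here.

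None of the 5 receptors differed between MUT and WT at an FDR of 0.1 in edgeR's quasi-likelihood test across all genes, where 0.0102% of the 19656 tested genes were called, and none had an unadjusted p under 0.05, which 2.78% of all genes had. DESeq2 called 0 of the 5 receptors (0.0241% of 37271 genes), with 0 at an unadjusted p under 0.05. The fold changes, each with an adjusted p of 0.998 in edgeR, ran from 1.01 for Fgfr1 to 1.17 for Fgfr3. All 5 log2 fold changes were above 0, with a median of 0.12, beside 51.8% of tested genes above 0 and a median of 0.0066.

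Fgfr1, the broadly expressed receptor for FGF2, was counted 2694, 2354 and 2286 times in the 3 WT libraries (replicates 1 to 3) and 2525, 2362 and 2480 times in MUT. Its levels were 118, 101 and 96.6 CPM in WT and 110, 102 and 106 CPM in MUT. The highest and the lowest library were both WT, and the MUT libraries fell between them. The means were 105 ± 11.2 and 106 ± 3.97 CPM (SD, n = 3), and the log2 fold change was 0.018 ± 0.085 SE, with a 95% confidence interval of the fold from 0.884 to 1.16. A difference in Fgfr1 was therefore not detectable, and its interval spans from an 11.6% decrease to a 15.9% increase.

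Fgfr2, whose IIIb form responds to FGF7 and FGF10, had 172, 185 and 167 counts in WT and 183, 163 and 213 in MUT. Its levels were 7.52, 7.91 and 7.06 CPM in WT and 7.998, 7.07 and 9.10 CPM in MUT. The groups overlapped, with MUT replicate 3 highest and WT replicate 3 and MUT replicate 2 lowest. The log2 fold change was 0.10 ± 0.15 SE, and the 95% interval of the fold ran from 0.852 to 1.36.

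Fgfr3, a receptor used as a marker of human spermatogonial stem cells, had 497, 482 and 468 counts in WT and 516, 654 and 511 in MUT. Its levels were 21.7, 20.6 and 19.8 CPM in WT and 22.6, 28.4 and 21.8 CPM in MUT. MUT replicate 2 stood above the other 5 libraries, and the remaining MUT libraries lay just above the highest WT library. The means were 20.7 ± 0.974 and 24.3 ± 3.58 CPM (SD, n = 3). The log2 fold change was 0.23 ± 0.12 SE, with a 95% interval of the fold from 0.968 to 1.42 and an unadjusted p of 0.0922 (edgeR). Without MUT replicate 2 it was 0.088 ± 0.11, and without MUT replicate 3 it was 0.30 ± 0.13 with an unadjusted p of 0.0449 and an adjusted p of 0.563 (edgeR).

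Fgfr4, the receptor that with KLB answers to endocrine FGFs in liver, had 43, 48 and 40 counts in WT and 36, 65 and 50 in MUT. Its levels were 1.88, 2.05 and 1.69 CPM in WT and 1.57, 2.82 and 2.14 CPM in MUT. Both the highest and the lowest library were MUT. The log2 fold change was 0.22 ± 0.25 SE, with an interval of the fold from 0.779 to 1.73, the widest of the 5, and it turned to -0.026 ± 0.26 without MUT replicate 2.

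Fgfrl1, the member without a kinase, had 1052, 1037 and 1025 counts in WT and 1131, 1148 and 1076 in MUT. Its levels were 46.0, 44.3 and 43.3 CPM in WT and 49.4, 49.8 and 46.0 CPM in MUT. The lowest MUT library and the highest WT library were next to each other. The means were 44.5 ± 1.34 and 48.4 ± 2.10 CPM (SD, n = 3), the log2 fold change was 0.12 ± 0.071 SE, and the 95% interval of the fold ran from 0.972 to 1.22 (unadjusted p = 0.125, edgeR). MUT replicate 2 was the highest library, and without it the log2 fold change was 0.086 ± 0.084 SE.

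**Figure D2:**
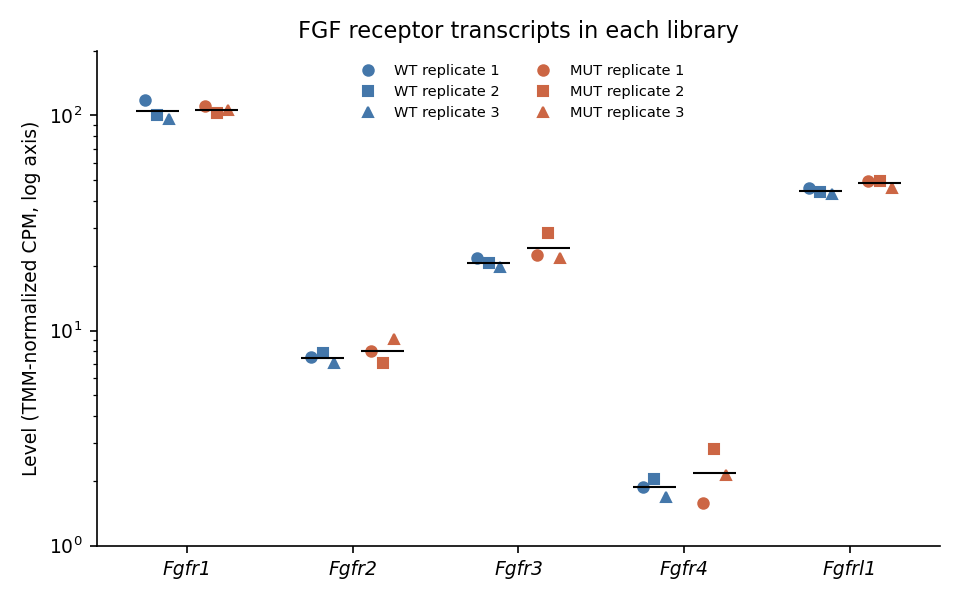
Points are the TMM-normalized CPM of each receptor in each library (log axis), WT in blue and MUT in orange, with marker shapes for the replicate numbers and a line at each mean. The groups overlap or nearly touch for each receptor, and MUT replicate 2 is highest for Fgfr3 (28.4 CPM), Fgfr4 (2.82 CPM) and Fgfrl1 (49.8 CPM).

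In 2 of the 5 receptors, Fgfr3 and Fgfrl1, the 3 MUT libraries lay above the 3 WT libraries, which in this direction was so for 4.69% of all tested genes and in either direction for 7.69%. An exact two-sided permutation test gave p = 0.1 for each, the smallest that 3 against 3 samples can give. The gap was narrow in both, from 21.7 to 21.8 CPM in Fgfr3 and from 45.97 to 45.99 CPM in Fgfrl1. With DESeq2 size factors in place of TMM the groups of both genes overlapped, and with library totals they did not. Of the markers of undifferentiated spermatogonia, Lin28a also had 3 MUT libraries above the 3 WT libraries and was not called. It was at 340 ± 14.0 CPM in WT and 407 ± 23.3 CPM in MUT (unadjusted p = 0.00861, adjusted p = 0.998, edgeR), and was highest in MUT replicate 1. In that list 5 of 9 genes had a log2 fold change above 0 and none was called. Of the Sertoli cell markers, Wt1 and Gata4 had 3 MUT libraries above the 3 WT libraries as well, and neither was called (adjusted p = 0.998, edgeR). Wt1 was at 10.6 ± 0.305 CPM in WT and 13.6 ± 2.57 CPM in MUT, and like Fgfr3 it was highest in MUT replicate 2. Gata4 was at 8.36 ± 0.513 and 9.55 ± 0.307 CPM (SD, n = 3), was highest in MUT replicate 3, and its groups overlapped with library totals. Over the Sertoli cell list, 4 of the 5 tested genes had a log2 fold change above 0 and 0 of 5 were called, the summed level was 24.8 to 30.7 CPM in WT and 28.8 to 36.4 CPM in MUT, and Sox9 (1.54 to 2.65 CPM) and Fshr (0.0874 to 0.214 CPM) were low. In the Leydig cell list 5 of 5 tested genes had a log2 fold change above 0, with none called and a median of 0.98, and the sums were 13.2 to 21.1 CPM in WT, 12.9 and 13.5 CPM in MUT replicates 1 and 2 and 67.3 CPM in MUT replicate 3. In the peritubular myoid list 4 of 4 were above 0, with none called, a median of 0.25 and sums of 6.99 to 8.11 CPM in WT and 8.02 to 11.4 CPM in MUT. In the endothelial list 2 of 5 were above 0 and none was called. In the spermatid and macrophage lists 5 of 5 genes each had a log2 fold change below 0, none was called, and the sums were 857 to 1459 CPM in WT and 593 to 1131 CPM in MUT for the spermatid genes and 505 to 757 and 424 to 555 CPM for the macrophage genes. With the replicate number as a block, 1 spermatid gene, Tnp1, passed (adjusted p = 0.0794, edgeR). The part of these cells in the receptor values was not tested.

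Without WT replicate 3, the library that stood apart, the log2 fold changes were -0.039 for Fgfr1, 0.063 for Fgfr2, 0.20 for Fgfr3, 0.15 for Fgfr4 and 0.10 for Fgfrl1. Without MUT replicate 3 they were 0.021, 0.0091, 0.30, 0.23 and 0.16 in the same order. No receptor was called in any of the 6 fits that left out 1 library.

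**Figure D3:**
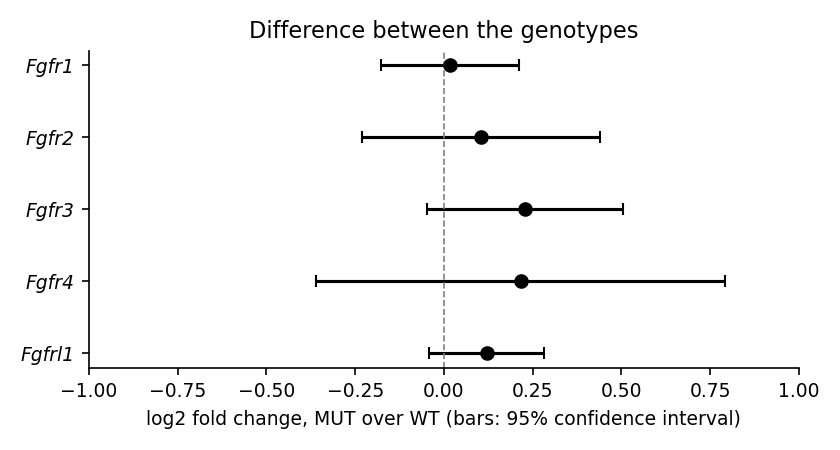
Points are the log2 fold changes of the receptors, MUT over WT, from edgeR's quasi-likelihood test with 3 samples per genotype, and bars are 95% confidence intervals. Each interval includes 0, and the widest is that of Fgfr4, the receptor with the fewest counts.

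**Figure D4:**
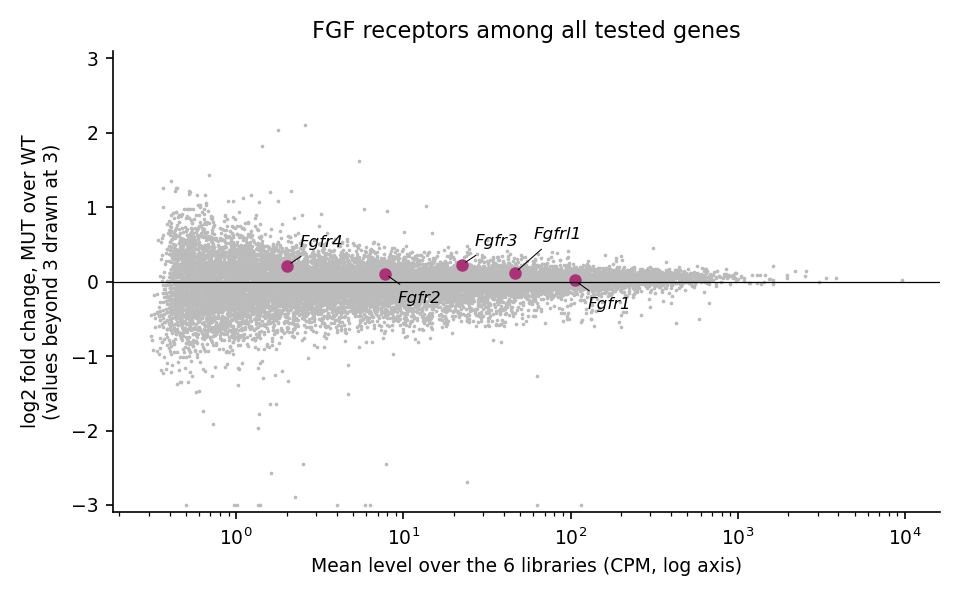
Grey points are the 19656 tested genes, with the mean level over the 6 libraries in CPM on a log axis and the log2 fold change, MUT over WT, on the other. The receptors (purple) lie within the cloud of genes of their level, between 0.018 (Fgfr1) and 0.23 (Fgfr3).

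The spread among the 6 libraries was smallest for Fgfrl1, with a coefficient of variation of 5.68%, then Fgfr1 with 7.16%, Fgfr2 with 9.82%, Fgfr3 with 13.6% and Fgfr4 with 21.9%. The genes whose profile over the 6 libraries was most like that of a receptor were found by the root mean square (RMS) difference of log2 CPM, after subtraction of each gene's mean, among 10583 genes with at least 10 CPM. They were Tmtc4 (0.0188) and Rragd (0.0247) for Fgfr1, Tmem108 (0.0304) and Kank4os (0.0447) for Fgfr2, and Cyp46a1 (0.0404) and Xylb (0.0491) for Fgfr3. For Fgfr4 they were Npnt (0.0515) and Runx3 (0.0620), and for Fgfrl1 Spats2 (0.0115) and Lsm14b (0.0148). For comparison, the RMS deviation of a receptor from its own mean was 0.0926 for Fgfr1, 0.118 for Fgfr2, 0.163 for Fgfr3, 0.219 for Fgfr4 and 0.0736 for Fgfrl1. With 6 libraries and this many candidates such likeness is a description only.

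Most of the secreted ligands of the receptors were scarce in the sorted cells, and none of the 13 tested ligand genes of 22 listed was called. Among them 8 had a log2 fold change above 0 and 5 below, with a median of 0.11. Per length the highest were Fgf13, at 3.66 CPM per kilobase, and Fgf11, at 2.03, both of which encode FGF homologous factors that stay inside the cell. Fgf13 had levels of 11.3, 14.3 and 14.6 CPM in WT and 15.5, 16.8 and 15.8 CPM in MUT (log2 fold change 0.26 ± 0.13 SE, unadjusted p = 0.0755, edgeR). Fgf2 was at 7.73 to 8.96 CPM in WT and 7.29 to 9.70 CPM in MUT. Fgf9, a signal of the developing testis, was at 3.21 to 4.87 CPM over the 6 libraries, and Fgf8 at 1.99 to 2.93 CPM. Fgf7, a growth factor of stromal cells, had the smallest p of the list (unadjusted p = 0.0305, adjusted p = 0.998, edgeR), from 0.131, 0.214 and 0.423 CPM in WT and 0.874, 0.564 and 0.427 CPM in MUT, which is close to the limit of 3 counts. The groups of Fgf7 and Fgf13 did not overlap, with MUT higher, as was so for 4.69% of all tested genes in this direction. When library totals replaced the TMM factors, the groups of both genes overlapped. The 9 ligand genes that were too low to be tested had at most 0.556 CPM in any library.

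The surface and heparan sulfate machinery was present at higher levels, with none of 23 tested genes of 25 called, 16 above 0 and 7 below, and a median log2 fold change of 0.10. Sdc4, a heparan sulfate proteoglycan of the cell surface, was the highest per length at 219 CPM per kilobase, with 560 ± 46.4 CPM in WT and 557 ± 78.7 CPM in MUT. Ndst2, an enzyme that sulfates heparan chains, followed at 19.0 CPM per kilobase. The smallest unadjusted p values were 0.109 for Flrt1, whose protein binds FGF receptors in the membrane (5.07 ± 1.47 CPM in WT and 6.73 ± 0.700 CPM in MUT), and 0.157 for Sulf1, a sulfatase that trims heparan sulfate (25.0 ± 2.82 and 28.2 ± 2.13 CPM, edgeR). The co-receptors of the endocrine FGFs, Kl and Klb, were at 0.217 to 0.568 and 0.3804 to 0.641 CPM, a few counts above the limit.

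The log2 fold changes of the adaptor genes that link the receptors to RAS lay between -0.040 and 0.099. None of 14 was called, 11 were above 0 and 3 below, and the median log2 fold change was 0.041. Crkl and Grb2 were the highest per length, at 33.6 and 26.8 CPM per kilobase, with 128 ± 16.997 and 132 ± 9.20 CPM for Crkl and 76.4 ± 2.67 and 79.8 ± 3.88 CPM for Grb2 in WT and MUT. The docking protein gene Frs2 was at 71.9 to 91.8 CPM in WT and 81.9 to 92.5 CPM in MUT. Sos1, a nucleotide exchange factor of RAS, had the smallest p of the list (log2 fold change 0.099 ± 0.099 SE, unadjusted p = 0.345, edgeR), and the docking protein gene Frs3 the next (0.076 ± 0.079, unadjusted p = 0.363, edgeR).

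Among the 5 splicing regulators that act on receptor exons, 0 were called and the median log2 fold change was 0.054. Ptbp1, which represses exons of the receptors, was the highest at 87.3 CPM per kilobase, and Esrp1, which favours the epithelial IIIb exon, stood at 39.2 CPM per kilobase. Esrp1 was at 254 ± 31.6 CPM in WT and 241 ± 22.5 CPM in MUT. Its relative Esrp2 was far lower, at 0.477 CPM per kilobase, and had the smallest p of the list (unadjusted p = 0.316, edgeR). Rbfox2 was at 141 ± 8.44 and 146 ± 9.35 CPM (unadjusted p = 0.495, edgeR).

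Of the genes that respond to or dampen receptor signaling, 16 of 17 listed were analysed and tested, and none was called. Here 5 log2 fold changes were above 0 and 11 below, with a median of -0.10. Spry1, an inhibitor of receptor signaling to RAS, had levels of 21.8, 23.4 and 24.5 CPM in WT and 20.7, 18.1 and 18.4 CPM in MUT. The 3 MUT libraries lay below the 3 WT libraries under each of the 3 scalings, as was so for 3% of tested genes in this direction with TMM. The log2 fold change of Spry1 was -0.28 ± 0.10 SE (unadjusted p = 0.0210, adjusted p = 0.998, edgeR). Dusp6, a phosphatase that inactivates ERK, was at 137, 127 and 128 CPM in WT and 127, 99.2 and 104 CPM in MUT. Its groups overlapped at replicate 1 of MUT, and the log2 fold change was -0.25 ± 0.098 SE (unadjusted p = 0.0340, adjusted p = 0.998, edgeR). Egr1, an immediate-early transcription factor, was the highest per length at 87.3 CPM per kilobase and had means of 393 ± 54.8 and 390 ± 30.8 CPM. Etv5, a transcription factor needed for stem cell maintenance in the testis, was at 161, 158 and 121 CPM in WT and 160, 109 and 120 CPM in MUT. Over the 5 lists together, 0 of 71 tested genes were called by edgeR. Of the 71, 3 had an unadjusted p under 0.05, beside 547 of all 19656 tested genes (2.78%). DESeq2 called 0 of 82 tested, with 2 at an unadjusted p under 0.05, beside 438 of 37271 genes. In edgeR with a replicate block 0 of 71 were called. There 6 were under 0.05 before adjustment, beside 1297 of all 19656 tested genes. Those 6 were Fgf7, Spry1 and Dusp6, as without the block, and Fgf13, Flrt1 and Ndst1.

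**Figure D5:**
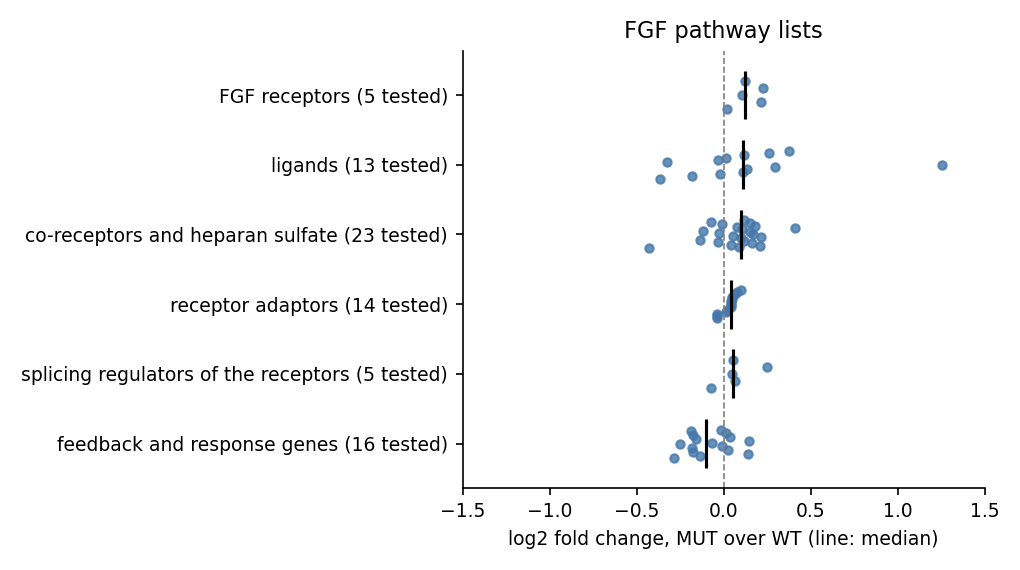
Each point is the log2 fold change, MUT over WT, of 1 tested gene of the receptor family or of a pathway list, and vertical lines are medians. The adaptor genes lie between -0.040 and 0.099, the list medians run from -0.10 (feedback and response genes) to 0.12 (receptors), and no point passed the FDR of 0.1.

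Among the genes known from selfish selection in the human testis, Fgfr2 and Fgfr3 were compared with Hras, Ptpn11 and Ret. None of the 5 was called, and the median log2 fold change was 0.10. Per length Ret, the receptor of the GDNF pathway, was the highest at 52.0 CPM per kilobase (369 ± 85.0 CPM in WT and 335 ± 56.5 CPM in MUT), and Hras was at 17.1 CPM per kilobase. Hras had 60.7 ± 4.21 CPM in WT and 66.7 ± 4.97 CPM in MUT (log2 fold change 0.14 ± 0.083 SE, adjusted p = 0.998, edgeR), and its count takes both alleles together, so it does not show the genotype. Per length Fgfr3 and Fgfr2, at 3.14 and 0.753 CPM per kilobase, were thus the lower genes beside Hras and Ret, as a description.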

How the data were processed

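Libraries were stranded mRNA, sequenced as paired 50-base reads. Per the file headers, the authors deposited raw fragment counts per gene name from featureCounts 1.6.2 on GENCODE M17 with tdTomato added, without a strand setting, so fragments on several genes and multi-mapping ones were left out. STAR and FastQC, and GRCm38.p6, are named in the submitters' processing notes, with tool versions not given in the sources used here. No value was normalized or pooled before deposit.

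Groups and replicate numbers came from the sample labels, with 3 mice per genotype. Counts of the 6 libraries were merged on the gene name, and WT and MUT were compared in R 4.3.3 with edgeR 4.0.16 (TMM, filterByExpr, quasi-likelihood test, genotype only, Benjamini-Hochberg adjustment over all 19656 tested genes, FDR 0.1). Standard errors (SE) are the log2 fold change over the square root of F. Alternatives were DESeq2 1.42.0, limma 3.58.1 voom, DESeq2 size factors, no filter, at least 10 counts in every library, an FDR of 0.05, the replicate block, other scalings and lengths, and each library left out. Overlap of groups under other scalings was added after seeing the data. Permutation and sign-flip tests enumerated 20 and 64 arrangements, and the order of receptor levels was tested at an adjusted p of 0.05. Coding sequences were aligned with MAFFT 7.526. The test across genes was tested on simulated data.

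The labels give the same replicate numbers to both genotypes and the study used littermate controls without naming pairs. Deviations from the group means correlated at 0.313, 0.174 and 0.394 between samples numbered 1, 2 and 3 (10583 genes). WT replicate 2 correlated at 0.323 with MUT replicate 1, above its 0.174 with MUT replicate 2, so these values do not settle the pairs. The main tests used genotype only, and the replicate number entered as a block in alternative fits only.

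The members and lists were chosen with earlier results of these data known. Genes named are the receptors, Hras, in each pathway list the 2 highest per length and the 2 with the smallest p, and the 2 genes nearest to each receptor. Fgf2, Fgf8, Fgf9, Kl, Klb, Frs2, Etv5 and the marker genes were chosen after their values were seen. Each library held at least 22729292 counts, and the limit of 3 counts covers counting error only, whereas the intervals of fold changes include the spread between samples.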

Additional observations from a re-analysis of the deposited data

How the results depend on the processing

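No receptor and no gene of the 5 pathway lists was called under any of the alternatives run. The direction of Fgfr1 turned without WT replicate 2 (-0.025), WT replicate 3 (-0.039) and MUT replicate 1 (-0.017), and that of Fgfr4 without MUT replicate 2 (-0.026). With each library left out in turn the log2 fold change ran from -0.039 to 0.099 for Fgfr1, 0.0091 to 0.18 for Fgfr2, 0.088 to 0.30 for Fgfr3, -0.026 to 0.40 for Fgfr4 and 0.086 to 0.16 for Fgfrl1. Over the other alternatives the 5 values kept their direction, and Fgfr3 ran from 0.22 to 0.23. With the longest coding transcript as the length, Fgfrl1 over Fgfr1 turned to -0.069 and Fgfr2 over Fgfr4 rose to 1.59 and passed. With 5 libraries a sign-flip test cannot give less than 0.0625, so no pair could pass the threshold of 0.05, and the log2 differences ran from 0.62 to 0.68 for Fgfrl1 over Fgfr1, 1.74 to 1.85 for Fgfr1 over Fgfr3, 1.96 to 2.11 for Fgfr3 over Fgfr2 and 0.34 to 0.55 for Fgfr2 over Fgfr4.

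The number of genes called among all tested was 2 in the main comparison, 1 at an FDR of 0.05, 9 with DESeq2, 4 with limma voom, 5 without a filter, 0 with at least 10 counts in every library (479 at an unadjusted p under 0.05), and 0 to 6 with 1 library left out (0 without MUT replicate 2, with 292 at an unadjusted p under 0.05). The cause was not tested. A fit with the replicate block called 13 genes in edgeR and 55 in DESeq2, with 0 receptors and 0 pathway genes among them, and of the genes of the receptor, pathway and marker lists it changed the call at an FDR of 0.1 of Tnp1 only, in edgeR. In edgeR it raised the pathway genes with an unadjusted p under 0.05 from 3 to 6 of 71. Over all 19656 tested genes the same number rose from 547 to 1297. Under the block the log2 fold changes were 0.022 for Fgfr1, 0.10 for Fgfr2, 0.22 for Fgfr3 (unadjusted p = 0.0708, adjusted p = 0.794, edgeR), 0.20 for Fgfr4 and 0.12 for Fgfrl1. Depth limits Fgfr4 most, at 36 to 65 counts per library.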
